A study of Drosophila melanogaster with 2 samples.

Results

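The RNA-binding protein genes elav, fne and Rbp9, the presynaptic genes nSyb, Syt1 and brp, and the glial gene repo are 7 of 13968 protein-coding genes (18277 genes of all kinds) annotated on the chromosome arms of Drosophila melanogaster. They were listed by name, and all 7 were found in the annotation. A summit is the position of highest signal within a region. Regions listed for the zinc finger protein CG6813 were assigned to a gene when their summit lay inside it or within 5 kb of it. By this rule 5 of the 7 genes, elav, fne, Rbp9, brp and repo, had 10 thresholded peaks between them, and nSyb and Syt1 had 0. The strongest of the 10 lay 246 bp upstream of the start of elav.

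ChIP-seq was performed on whole embryos of both sexes aged 0 to 24 h from a transgenic line that carries CG6813 with GFP at its C-terminus, with an antibody against GFP and chromatin sheared to between 200 and 800 bp. There was 1 group with 2 biological replicates, numbered 2 and 3, and replicate 1 was not analysed here. Neurons and glia are a part of the cells of a whole embryo, so no region can be assigned to a cell type. The labels do not say whether the line kept untagged CG6813. The lists hold binding and no expression, so the neural label of the 7 genes could not be checked against their RNA in these embryos.

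The ELAV family proteins bind U-rich sequences in RNA. In the nuclei of neurons ELAV itself regulates alternative splicing and the choice of 3′ ends. The elav gene is needed for the long 3′ untranslated regions (3′ UTRs) that many genes carry in the nervous system. Synaptobrevin, encoded by nSyb, is the vesicle membrane protein that drives fusion of synaptic vesicles, synaptotagmin, encoded by Syt1, is the calcium sensor of that fusion, and Bruchpilot, encoded by brp, builds the dense scaffold of the active zone. The homeodomain protein encoded by repo directs the differentiation of lateral glia and is the standard marker of glial cells.

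The authors deposited a thresholded list of 5012 peaks, a pooled list of 30000 regions from both replicates, and a list of 30000 regions for each replicate. The authors' name for the pooled list describes peaks and background, so a region below the threshold is not taken here as bound. Each region carries a signal value as the authors' peak caller wrote it. Ranks run from 1, the strongest signal, within a list. The thresholded list is the top of the pooled list by signal, with values between 145.7 and 3734 and a median of 226.4. Read depth is unknown, and the signals of different lists are not on a common scale: over all thresholded peaks the median ratio of replicate 2 to replicate 3 was 2.19, with quartiles of 1.72 and 2.78.

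Both sequences closest to the start of elav are shown, because they underlie the strongest and the second strongest of the 10 peaks, together with the peak 3504 bp upstream of elav and the intronic peak of fne. Each is 300 bp around the summit, read 5′ to 3′ on the plus strand of the RefSeq Release 6 plus ISO1 MT assembly, whose arms match the dm6 coordinates of the peaks. The elav gene is transcribed from the minus strand and fne from the plus strand. Capitals mark every match, on either strand and overlaps included, to any of 5 short motifs (GAGA, TATA, E-box, DRE core and CA repeat), which are spelled out where their counts are given.
elav upstream, chrX:523322-523621: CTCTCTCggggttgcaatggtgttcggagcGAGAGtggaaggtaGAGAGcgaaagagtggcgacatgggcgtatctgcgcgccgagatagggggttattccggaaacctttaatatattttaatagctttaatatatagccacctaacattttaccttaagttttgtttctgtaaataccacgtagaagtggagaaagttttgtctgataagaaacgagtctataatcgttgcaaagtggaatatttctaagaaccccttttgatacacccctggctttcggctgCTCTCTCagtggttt
elav first intron, chrX:522468-522767: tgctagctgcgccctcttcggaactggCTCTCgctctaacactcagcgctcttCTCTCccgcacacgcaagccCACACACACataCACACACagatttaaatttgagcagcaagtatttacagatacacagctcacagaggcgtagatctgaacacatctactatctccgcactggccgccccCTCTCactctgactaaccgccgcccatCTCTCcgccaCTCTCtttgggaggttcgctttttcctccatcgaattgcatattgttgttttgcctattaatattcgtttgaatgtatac
elav distal, chrX:526580-526879: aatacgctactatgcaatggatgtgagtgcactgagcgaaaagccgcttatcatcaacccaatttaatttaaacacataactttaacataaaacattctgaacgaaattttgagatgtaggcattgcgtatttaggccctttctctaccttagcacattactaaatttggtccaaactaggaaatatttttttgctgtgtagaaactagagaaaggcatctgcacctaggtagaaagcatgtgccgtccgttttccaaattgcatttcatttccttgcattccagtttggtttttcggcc
fne intron, chrX:12923332-12923631: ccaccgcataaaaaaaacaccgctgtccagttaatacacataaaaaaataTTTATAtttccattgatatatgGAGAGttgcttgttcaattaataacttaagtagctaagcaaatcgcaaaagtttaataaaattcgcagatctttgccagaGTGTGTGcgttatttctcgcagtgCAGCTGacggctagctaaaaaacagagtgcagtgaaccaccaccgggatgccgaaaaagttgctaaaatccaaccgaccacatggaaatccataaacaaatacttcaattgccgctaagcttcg

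The elav gene (FBgn0260400) spans chrX:509235-523226 on the minus strand, 13992 bp, with 4 transcripts from 2 start sites (TSSs) at 523226 and 520285. Most of it lies within an intron of arg, which encodes arginase, and it overlaps the noncoding gene lncRNA:enrr. The 4 thresholded summits of its window were the largest number among the 7 genes. Of all protein-coding genes, 4.01% had 4 or more thresholded summits inside the gene or within 5 kb. That share was not matched for gene length.

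The elav upstream peak, chrX:523351-523644, had its summit at 523472, outside the annotated transcripts of elav and inside the intron of arg. Its pooled signal was 1453, rank 45 of 30000, which is higher than 99.1% of the thresholded peaks. Its signal was 1051 in replicate 2, rank 46, and 405.2 in replicate 3, rank 47. The 3 lists thus placed this peak within 2 ranks of each other, though the pooled list was made from both replicates and is not a separate observation. The summits lay 260 bp and 213 bp upstream of the TSS in replicate 2 and replicate 3. Of 2063 protein-coding genes with a thresholded summit within 500 bp of a TSS, 34 (1.65%) had a stronger one than elav in the pooled list.

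The first intron peak of elav, chrX:522536-522716, had its summit at 522618, 608 bp downstream of the same TSS. Its pooled signal was 495.7, rank 678, with 352.1 in replicate 2, rank 640, and 155.3 in replicate 3, rank 636. It lay 854 bp from the upstream summit, on the other side of the TSS, and was the second strongest of the 10 peaks in all 3 lists.

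The elav 3′ UTR held the peak chrX:515680-516099, with its summit at 515890, 4395 bp downstream of the inner TSS and 6728 bp from the intronic summit. Its pooled signal was 312.1, rank 1521, with 215.7 in replicate 2, rank 1526, and 89.9 in replicate 3, rank 1894. The most distal peak, chrX:526520-526939 with its summit at 526730, had a pooled signal of 285.5, rank 1765, with 175.3 in replicate 2, rank 2119, and 112.8 in replicate 3, rank 1208. Its nearest TSS was that of CG4293, at 3119 bp, and it also lay 3771 bp upstream of Appl, which encodes the amyloid precursor protein-like protein of neurons. In replicate 3 the distal peak was stronger than the 3′ UTR peak, and in replicate 2 and the pooled list it was weaker.

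The pooled list held 9 more regions in the elav window, all under the lowest thresholded signal of 145.7. The strongest of them lay 1302 bp upstream of the TSS with a signal of 136.3, rank 5552, and 1437 bp downstream of it with 131.3, rank 5869. The inner TSS at 520285 had a pooled region 157 bp downstream with a signal of 62.6 and another 349 bp upstream with 82.0. The upstream peak alone made up 44.2% of the summed pooled signal of the 13 regions, 46.5% of the sum of 12 regions in replicate 2 and 38.0% of the sum of 13 regions in replicate 3.

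**Figure D1:**
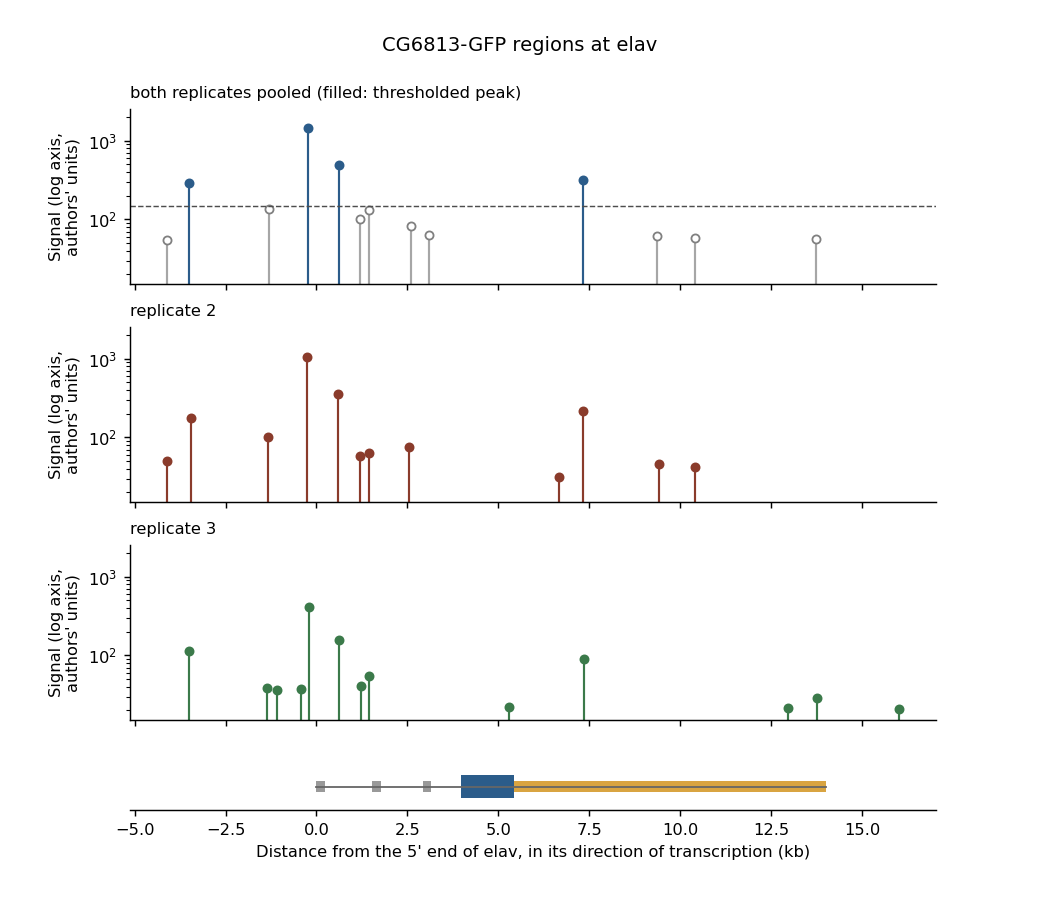
Signal of each CG6813-GFP region (vertical axis, log scale, authors' units) against the distance of its summit from the 5′ end of elav in kb (horizontal axis), in the pooled list and in replicates 2 and 3; filled points in the pooled panel are thresholded peaks, the dashed line is the lowest thresholded signal of 145.7, and the gene model shows coding exons in blue, 3′ UTR in orange and other exons in grey. The point 246 bp upstream is the highest in each list, at 1453, 1051 and 405.2, and of the 4 pooled regions within the long orange block 1 is thresholded, at 312.1.

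The promoter peaks most like that of elav were found by the distance of their log2 signals from those of elav over the 2 replicates, across the 2028 other genes whose strongest thresholded summit within 500 bp of a TSS had a region in both replicates. The closest was at gish, which encodes a casein kinase I, with 1082 in replicate 2 and 404.7 in replicate 3, a distance of 0.04 on the log2 scale. PAN3, a subunit of a deadenylase complex, followed with 1017 and 387.6 (distance 0.08), and CG31145 with 1111 and 413.6 (distance 0.09). Their pooled ranks were 42, 52 and 40. Likeness here is in height in 2 samples only.

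The fne gene (FBgn0086675), which encodes a second neuronal ELAV family protein, spans chrX:12917477-12950417 on the plus strand, 32941 bp, with 11 transcripts and 4 TSSs. Its stronger thresholded peak, chrX:12947643-12948062, had its summit at 12947853 in the fne 3′ UTR, 6581 bp downstream of the nearest TSS of fne. The pooled signal was 235.8, rank 2340, with 136.8 in replicate 2, rank 3064, and 90.7 in replicate 3, rank 1856.

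The intronic peak of fne, chrX:12923272-12923691, had its summit at 12923482, 5998 bp downstream of a TSS and 24371 bp from the 3′ UTR summit. Its pooled signal was 182.2, rank 3552, with 128.9 in replicate 2, rank 3355. In replicate 3 the nearest summit was 210 bp away, with a signal of 53.5, rank 5134. That region had the coordinates of another pooled region, with a signal of 97.7, rank 9104. The intronic peak was the 1 peak of the 10 without a summit of both replicates within 200 bp.

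At the TSSs of fne the regions were weak. The strongest pooled region within 500 bp of one had a signal of 82.5, rank 11936, at 385 bp upstream, which is 17.6 times lower than at elav. In replicate 2 the strongest was 92.8, at 466 bp upstream of another TSS, and replicate 3 listed 0 regions within 500 bp of a TSS of fne. A pooled region in an intron, 8581 bp from the nearest TSS, came closest to the thresholded peaks from below with a signal of 134.1, rank 5676.

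The Rbp9 gene (FBgn0010263), which encodes the remaining ELAV family protein and is also used in the ovary, spans chr2L:2954762-2968434 on the plus strand, 13673 bp, with 9 transcripts and 3 TSSs. Its 3′ UTR held the peak chr2L:2964494-2964913, with its summit at 2964704, 5557 bp downstream of the nearest TSS of Rbp9 and 4934 bp from that of Ts, the thymidylate synthase gene. The pooled signal was 175.0, rank 3779, with 120.0 in replicate 2, rank 3721, and 51.7 in replicate 3, rank 5477. It was the weakest of the 10 peaks in the pooled list and in both replicates.

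The stronger peak in the Rbp9 window, chr2L:2972489-2972908, lay 4265 bp beyond the gene. Its summit at 2972699 lay between the divergent starts of Rrp1, a DNA repair endonuclease gene, at 2972508 and of gammaTub23C at 2972891. The summit was 191 bp upstream of Rrp1 and almost as close to gammaTub23C. The pooled signal was 330.1, rank 1377, with 261.7 in replicate 2, rank 1108, and 63.6 in replicate 3, rank 3712. Its ratio of replicate 2 to replicate 3, 4.12, was the highest of the 10 peaks, and in replicate 3 the summit lay closest to gammaTub23C, 148 bp upstream of that gene. No list held a region within 500 bp of a TSS of Rbp9.

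All 3 ELAV family genes had a thresholded summit in their own 3′ UTR, and 0 of the other 4 genes did. Of all protein-coding genes, 86 (0.616%) had one. This shared position was noticed after the values had been seen, so it is given as a description. The 3′ UTRs of the family are among the longest annotated, at 8557 bp for elav, 4927 bp for fne and 5048 bp for Rbp9, against a median of 228 bp over coding genes. The comparison that follows takes the 3′ UTR length of fne as its bound, so the 3 family genes are counted in it. Among the 129 genes with a 3′ UTR of 4927 bp or more, 7 genes (5.43%) had a thresholded summit in it. They were pros (427.5), a homeodomain gene of neural precursors, Hr4 (354.1), a nuclear receptor gene, elav (312.1), fne (235.8), NetB (194.1), a Netrin guidance cue gene, ps (182.1), a splicing regulator gene, and Rbp9 (175.0), by pooled signal.

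The 3′ UTRs of Syt1, brp and nSyb were also long, at 6152, 4391 and 3025 bp, longer than those of 99.5%, 98.7% and 97.0% of coding genes. Their pooled regions in the 3′ UTR were weak, 1 in Syt1 with a signal of 72.3, rank 14701, and 1 in brp with 77.5, rank 13129. The 3′ UTRs of nSyb and repo held 0 pooled regions, and that of repo is 852 bp long. Over the whole thresholded list, 86 summits (1.72%) lay in any annotated 3′ UTR, and 52 (1.04%) did so farther than 500 bp from every TSS.

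**Figure D2:**
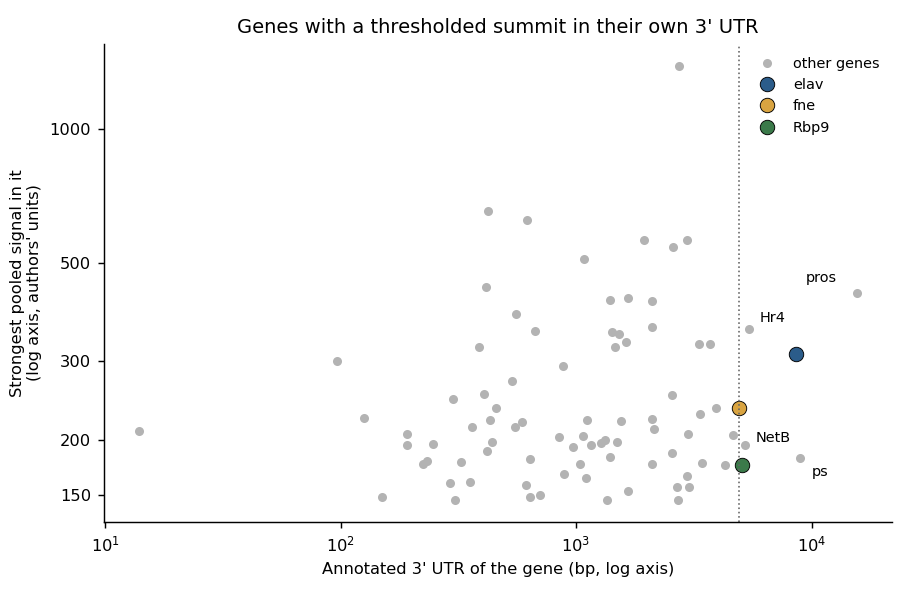
The strongest pooled signal in the 3′ UTR (vertical axis, log scale, authors' units) against annotated 3′ UTR length in bp (horizontal axis, log scale) for the 86 genes with a thresholded summit in their own 3′ UTR, 1 point a gene; the dotted line marks 4927 bp, the 3′ UTR of fne. The points for elav, fne and Rbp9, at signals of 312.1, 235.8 and 175.0, lie at or to the right of the line, where 4 other genes (pros, Hr4, NetB and ps) also lie.

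The nSyb gene (FBgn0013342) spans chr3L:1630348-1637752 on the minus strand, 7405 bp, with 8 transcripts and 3 TSSs. No thresholded summit lay in its window, and the 6 pooled regions there had signals between 54.3 and 81.6. The highest, rank 12131, lay 33 bp upstream of the neighbouring gene GC, a carboxylase gene, and no region of any list lay within 500 bp of a TSS of nSyb. The nearest thresholded peak was 7521 bp from nSyb, outside the window. Its summit was 74 bp upstream of alphaCOP, a coatomer gene, with a signal of 353.0, rank 1219.

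The Syt1 gene (FBgn0004242) spans chr2L:2772327-2799979 on the minus strand, 27653 bp, with 8 transcripts and 2 TSSs. Its 10 pooled regions had signals between 48.1 and 101.0, and the highest, rank 8660, was at the start of Taf10b, a gene for a general transcription factor subunit. A region 236 bp upstream of Syt1 itself had a pooled signal of 90.9, rank 10213, with 66.1 in replicate 2 at 134 bp upstream and 37.3 in replicate 3 at 439 bp upstream. The signal of the elav upstream peak was 16.0 times that of the Syt1 region in the pooled list. The nearest thresholded peak to Syt1 was 6280 bp from the gene, 186 bp upstream of aph-1, a gene of the gamma-secretase complex, with a signal of 193.3, rank 3282. A stronger one, at 450.3, rank 779, lay 6485 bp from Syt1 and 177 bp upstream of Snx21.

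The brp gene (FBgn0259246) spans chr2R:9503765-9541565 on the plus strand, 37801 bp, with 14 transcripts and 3 TSSs. Its single thresholded peak, chr2R:9544837-9545256 with its summit at 9545047, lay 3482 bp beyond the gene in the 3′ UTR of CG1888, 1911 bp from the start of that gene. The pooled signal was 228.3, rank 2466, with 137.5 in replicate 2, rank 3043, and 60.1 in replicate 3, rank 4133. Upstream of brp a pooled region at 256 bp had a signal of 56.8, rank 21988, and neither replicate listed a region within 500 bp of a TSS of brp. The matched replicate 3 region was the nearest, and another with a signal of 84.5, rank 2148, lay on the other side of the pooled summit.

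The brp window ended close to further peaks. Beyond it, at 5003 bp from brp and so just outside the rule, a thresholded summit 390 bp downstream of the start of CG1888 had a pooled signal of 203.2, rank 3008. The replicate 2 region of this peak fell just inside, with a signal of 156.1, rank 2500. At 5635 bp from brp, 242 bp upstream of CG1888, lay a peak with a pooled signal of 2131, rank 13, 1570 in replicate 2 and 587.3 in replicate 3, stronger than any of the 10. Just inside the rule, the farthest of the 10 summits lay 4265 bp from Rbp9 and 4170 bp from repo.

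The repo gene (FBgn0011701) spans chr3R:18236192-18239602 on the plus strand, 3411 bp, with 1 TSS. Its single thresholded peak, chr3R:18243562-18243981 with its summit at 18243772, lay 4170 bp beyond the gene in an intron of 14-3-3epsilon, a gene for a phosphoprotein-binding adaptor, 1085 bp from the start of that gene. The pooled signal was 213.6, rank 2780, with 124.2 in replicate 2, rank 3548, and 78.9 in replicate 3, rank 2486. Within repo the pooled list held 2 regions, the stronger in the coding sequence with a signal of 85.9, rank 11215, and no list held a region within 500 bp of the TSS.

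**Figure D3:**
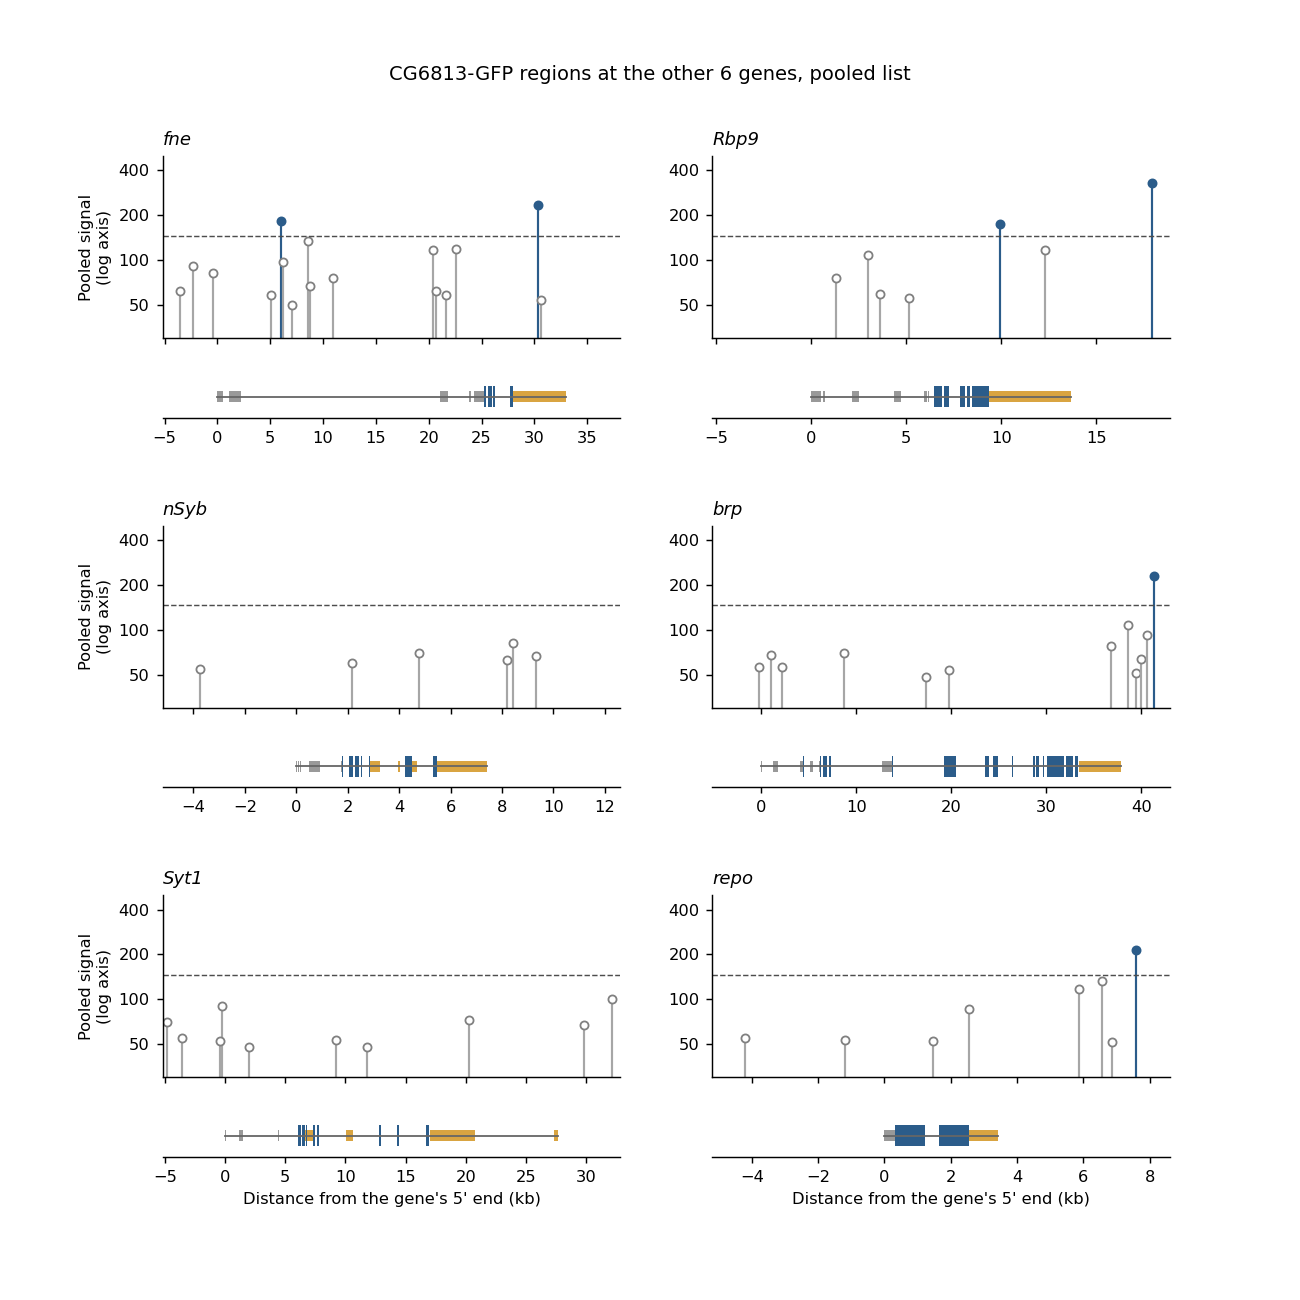
Pooled signal (vertical axes, log scale, authors' units) of each CG6813-GFP region against the distance of its summit from the gene's 5′ end in kb (horizontal axes) for fne, Rbp9, nSyb, brp, Syt1 and repo; filled points are thresholded peaks, the dashed line is 145.7, and gene models show coding exons in blue, 3′ UTR in orange and other exons in grey. The filled points of fne lie inside the gene, Rbp9 has 1 inside and 1 beyond its 3′ end, those of brp and repo lie 3482 and 4170 bp beyond the 3′ end, and nSyb and Syt1 have none.

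Across the 7 genes, 5 had a thresholded summit in the window, beside 44.1% of all protein-coding genes. Of the 6 genes in the longest of 3 equal classes of gene length 4 had one, beside 57.5% of that class. The remaining gene, repo, fell in the middle class, where 42.9% had one, and the shortest class, where 31.9% had one, held none of the 7. At least 2 summits were found at 3 of the 7 genes, beside 19.5% of all. Inside the gene itself, 3 of 7 had a summit, all of the ELAV family, beside 13% of all. This share and the 19.5% were not matched for gene length. The longest class starts at 3534 bp, and elav, fne and Rbp9 are 13992, 32941 and 13673 bp long. Within 500 bp of a TSS of its own 1 of 7, elav, had a thresholded summit, beside 14.8% of all.

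In the pooled list, all 7 genes had a region in the window, beside 86.1% of protein-coding genes, and 4 of 7 had one within 500 bp of a TSS, beside 41.4%. Summits in the 7 windows, 206876 bp in all, numbered 0.483 per 10 kb in the thresholded list, against 0.364 over the chromosome arms. Without elav the windows had 0.328 per 10 kb, and elav alone had 1.67. The density of the other 6 genes was thus below that of the arms in the thresholded list, while in the pooled list it was 3.23 per 10 kb against 2.18. The figure for the arms covers all assembled sequence, with or without genes, and a density over the windows of all genes was not computed.

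By place, 3 of the 10 peaks lay in the 3′ UTR of the listed gene, 2 in its introns, 2 upstream and 3 downstream of it. For 5 of the 10 the nearest TSS was that of the listed gene, and for the other 5 it was that of a neighbour, CG4293, Ts, Rrp1, CG1888 or 14-3-3epsilon. At the peak near Rrp1 the start of gammaTub23C was almost as close. The median pooled signal of the 10 was 260.6, against 226.4 over all thresholded peaks. The deposited −log10 q-value was 3.70 for 7 of the 10, 2.36 for the 3′ UTR peak of Rbp9, 2.45 for the intronic peak of fne and 2.79 for the repo peak. The 7 peaks shared this same value at signals from 228.3 to 1453, so it does not separate them by strength. Pooled regions below the threshold had lower values, from 0.246 to 0.572 in the nSyb window and from 0.198 to 0.860 in the Syt1 window.

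Between the replicates, 9 of the 10 peaks had a summit in both lists within 200 bp, as did 4927 of the 5012 thresholded peaks (98.3%). The thresholded list came out of a step that took in the replicate lists. This recurrence was thus largely built in and is no separate support. The ratio of replicate 2 to replicate 3 ran from 1.51 for the 3′ UTR peak of fne to 4.12 for the peak near Rrp1, with a median of 2.30. Besides that peak, the distal elav peak, at 1.55, the repo peak, at 1.57, and the 3′ UTR peak of fne lay outside the quartiles of all peaks. The other 6 lay within them. Among these 6, the ratio of the fne intronic peak, 2.41, rests on a replicate 3 region 210 bp away, beyond the match distance. That of brp, 2.29, rests on the nearest replicate 3 region, at 60.1, and a stronger one, at 84.5, also lay within 200 bp.

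**Figure D4:**
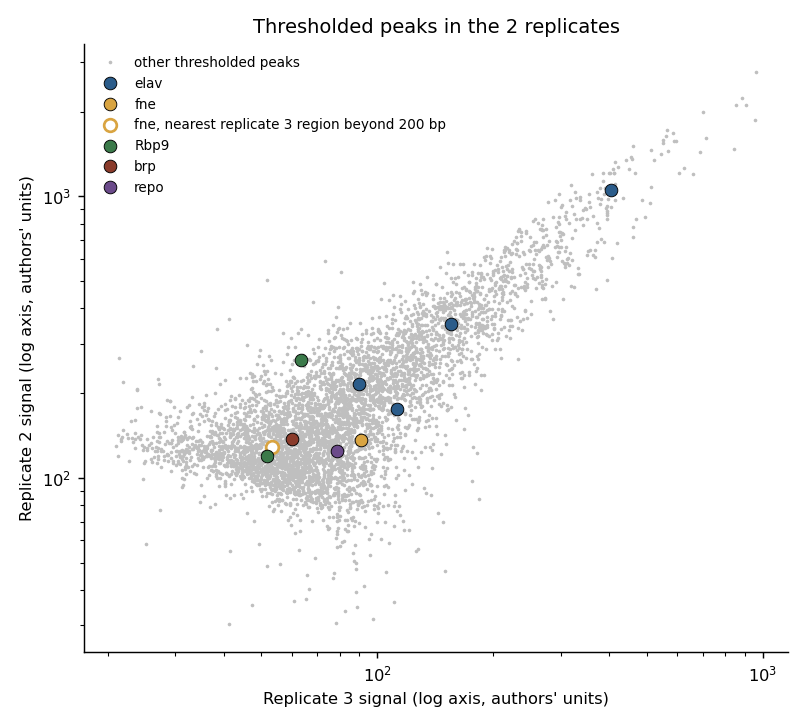
Signal in replicate 2 (vertical axis) against signal in replicate 3 (horizontal axis), both on log scales in the authors' units, for the 4927 thresholded peaks listed in both (grey) and for the 10 peaks of the listed genes (coloured by gene; the open circle is the fne intronic peak, set against its nearest replicate 3 region). The elav upstream peak stands near the top at 1051 and 405.2, and the peak near Rrp1, coloured as Rbp9, lies above the main cloud at 261.7 and 63.6.

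The 300 bp around each of the 10 summits were searched for 5 short motifs on both strands. GAGAG, bound by GAGA factor, was found in 6 of the 10 windows, beside 39.6% of windows of the same length at all thresholded summits and 35.0% at the other pooled regions. The elav upstream sequence held 6 matches and the elav first intron sequence 5, as the capitals in the printed sequences show. Of all thresholded windows, 3.19% held 6 or more matches and 4.69% held 5 or more. The elav 3′ UTR and repo windows held 3 matches each, both fne windows held 1 each, and the distal elav window held none of the 5 motifs.

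TATAAA was found in 4 of the 10 windows, beside 41.1% of thresholded and 31.5% of other pooled windows. CACACAC was found in 3, beside 15.1% and 14.9%, and CAGCTG, an E-box, in 2, beside 14.6% and 14.1%. TATCGAT, the core of the DNA replication-related element, was found in 0, beside 5.79% and 4.24%. The GC content of the 10 windows ran from 28.3% near Rrp1 to 49.3% at the elav first intron, with a median of 40.2%, against 38.7% at thresholded and 42.7% at other pooled summits.

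A list of 82 other genes of neurons and glia in 7 groups was read by the same rule. Of these, 41 (50%) had a thresholded summit in the window, beside the 44.1% of all protein-coding genes, and 16 (19.5%) had one within 500 bp of a TSS, beside the 14.8%. The groups differed in how many of their genes had a summit in the window, from 5 of 18 for synaptic vesicle and active zone genes to 6 of 8 for neuronal RNA-binding protein genes. No test was made between groups, and genes of different length have windows of different size, with a median gene length of 24156 bp in the first group and 70957 bp in the second.

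Among RNA-binding protein genes, 4 of 8 had a thresholded promoter summit, beside elav alone of the 3 ELAV family genes and 14.8% of all protein-coding genes. The strongest was 450.0 at ps, whose product is the fly counterpart of the Nova splicing factors, at 235 bp upstream of a TSS. It was followed by 237.7 at mub, a KH domain protein gene, 188.2 at Imp, which encodes an mRNA-binding protein of young neurons, and 146.1 at Rbfox1, which encodes a splicing regulator. The strongest summits in the windows of this group were 1042 at brat, a translational repressor of neural stem cells, 909.6 at Rbfox1 and 739.0 at mub, each in an intron. At 5 of the 8 genes the window held 4 or more summits, beside 4.01% of all protein-coding genes. Those 5 were 37561 to 171340 bp long, with larger windows than that of elav, a gene of 13992 bp with 4 summits.

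Of the 18 synaptic vesicle and active zone genes, 5 had a thresholded summit in the window and 0 had one at a TSS. None of nSyb, Syt1 and brp had one at a TSS either. The shares over all protein-coding genes were 44.1% and 14.8%. The strongest were 1355 at Syx1A, the plasma membrane partner of nSyb, 911.6 at Rim, an active zone protein gene, and 221.0 at Rbp, which encodes the RIM-binding protein. All 3 lay outside the gene, and the nearest TSS was that of another gene, CG18428, cpo and asRNA:CR46058.

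Of 12 glial genes, 8 had a summit in the window and 3 had one at a TSS, beside 44.1% and 14.8% of all protein-coding genes. The promoter summit of moody, a receptor gene of the blood-brain barrier glia, had a signal of 1171, rank 91, at 153 bp upstream, with 830.8 in replicate 2 and 350.8 in replicate 3. Those of pnt, an ETS factor gene, and Gli, a septate junction gene, had 315.3 and 171.6. Other strong summits of the group were 432.5 at nrv2, a sodium pump subunit gene, nearest to the TSS of nrv1, and 420.4 in an intron of pnt. The glial gene repo had no thresholded summit at its TSS, as was the case for most of the 12, and no region there in any list.

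Among the axon and adhesion genes, 7 of 10 had a summit in the window and 4 had one at a TSS. These counts stand beside 44.1% and 14.8% of all protein-coding genes, shares not matched for length. The median gene length of the group was 46581 bp. The promoter signals were 396.6 at Nrx-1, the neurexin gene, 221.0 at Fas3, 179.5 at Fas2 and 172.6 at Nrg, the last 3 of which encode cell adhesion molecules. The window maxima were 820.9 at fra, a Netrin receptor gene, 451.4 at Fas2 and 396.6 at Nrx-1. The 7 include Appl, whose strongest summit is the distal elav peak already described.

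Of 18 genes for neural precursor and neuronal transcription factors, 7 had a summit in the window and 3 had one at a TSS. The promoter signals were 335.0 at lola, 180.8 at vnd and 166.8 at ttk. For this group and those that follow, the shares over all protein-coding genes were 44.1% and 14.8%. The strongest in the windows were 427.5 in the 3′ UTR of pros, 377.8 near insc, an adaptor of asymmetric division, and 335.0 at lola. The summit near insc lay outside that gene, in an intron of lncRNA:CR44667. For neurotransmitter genes, 5 of 8 had a summit in the window and 1 had one at a TSS (ple, 163.8). The strongest were 542.7 in the window of ple, the tyrosine hydroxylase gene, and 481.4 at a summit shared by ChAT and VAChT. The summit of 542.7 was intergenic and nearest to the TSS of CG8519. That of 481.4 lay in an intron of ChAT, nearest to the TSS of lncRNA:CR46265. For ion channel genes, 3 of 8 had a summit in the window and 1 had one at a TSS (sei, 277.8). The strongest were 710.7 near sei, 520.0 near eag and 272.3 in an intron of Shal. The first 2 lay in introns of the neighbours tsr and pdgy, which also had the nearest TSS.

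**Figure D5:**
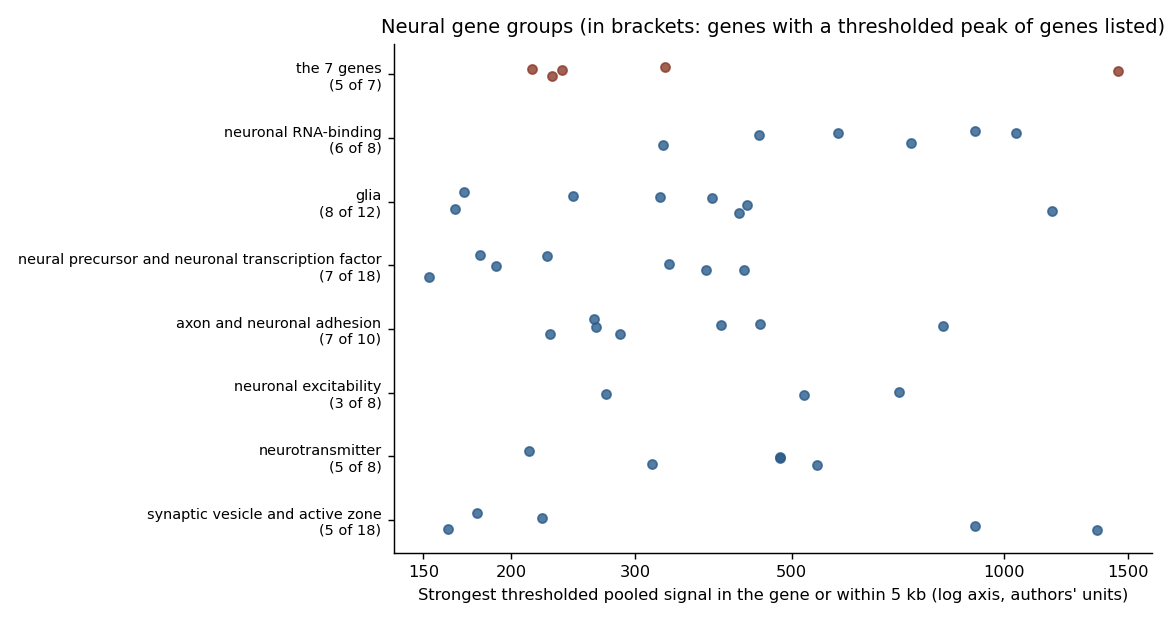
The strongest thresholded pooled signal in the gene or within 5 kb (horizontal axis, log scale, authors' units) for each gene that had one, by group, with the 7 listed genes on top in red and the 82 other neural genes in blue; numbers in brackets are genes with a peak of genes listed, and the vertical scatter within a group carries no meaning. The red point at 1453 is elav, the other 4 listed genes lie between 213.6 and 330.1, and the blue points at 1355 and 1171 are Syx1A and moody.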

How the data were processed

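Peak lists from ChIP-seq of CG6813-GFP in whole embryos were read as the authors deposited them, on dm6. Per the authors' file listing, the pooled and per-replicate lists went into an irreproducible discovery rate step, the thresholded list is its optimal set, and a control served for calling. The control library was not used here, and no label or header names the aligner, the caller or the cutoff. The signal of a region and its −log10 q-value are the authors' deposited values, whose normalization no label or header states. The depth is unknown, and signals were only described, ranked and filtered within a list.

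Summits were placed on the BDGP6.54 gene models with python 3.11.15, numpy 2.4.6 and pandas 2.3.3, and sequence came from the RefSeq assembly. A promoter summit lay within 500 bp of any TSS of the gene, and regions of 2 lists were matched at 200 bp between summits. Where several matched, the nearest was taken. The script was tested on simulated peaks. The genes, neural lists and motifs were chosen with earlier results of these data known. Of the neural lists, genes were named when they had a promoter summit or were among the 3 strongest of their group, and genes were named beside elav as the 3 most alike. With 1 group no test between samples was made, and the 2 replicates are given side by side.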

Additional observations from a re-analysis of the deposited data

How the results depend on the processing

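No paired analysis was possible because there was 1 group. Of 51 alternative values of counts, 37 stayed within 1.5 times the reported count, and 14 moved further. With summits counted inside the gene, within 1 kb or within 2 kb, 3 genes in place of 5 had one, and the 10 summits became 5, 6 and 6, while within 10 kb there were 17. In the whole pooled list the 7 windows held 72 summits and 4 genes had one at a TSS. Of the 82 other neural genes 76 had one in the window, beside 86.1% of all protein-coding genes, and 61 at a TSS, beside 41.4%. With a promoter distance of 200 bp, 0 of the 7 genes had a promoter summit, since that of elav lies 246 bp from the TSS. Inside the gene alone, 24 of the 82 other neural genes had a summit, beside 13% of all protein-coding genes. These shares were not matched for gene length and were not tested. With only peaks above the median signal of the thresholded list, 7 of the other neural genes had a promoter summit in place of 16. To leave out 1 replicate, the 5012 strongest regions of the other replicate's list were taken. The authors' thresholding was not redone, so the sets differ in kind. With 1 replicate left out, the rank of the elav peak was 46 to 47, the genes with a summit 5, their summits 10 to 12, the genes with a promoter summit 1, the other neural genes with a summit 41 to 44 and with a promoter summit 13 to 18. ELAV family genes with a 3′ UTR summit, an alternative chosen after seeing the data, numbered 2 to 3: without replicate 2, Rbp9 was lost, at rank 5477 of replicate 3. The 10 peaks have 2 replicates of unknown depth, so the difference in signal between them was described and not tested.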
